A study of Rattus norvegicus with 21 samples.

Results

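The comparison described here sets neonatal rat ventricular myocytes (NRVMs) that received an adenovirus carrying Klf2 (AdKlf2) against NRVMs that received a green fluorescent protein adenovirus (AdGFP), both without phenylephrine (PE). NRVMs are ventricular heart muscle cells taken from newborn rats into primary culture, and PE is an α1-adrenergic agonist that drives hypertrophic growth in such cultures. The members are the libraries whose labels name one of these viruses and a PE time of 0 h, which gave 3 AdKlf2 and 3 AdGFP libraries, 6 of the 21 samples of the series. The other samples were AdGFP and AdKlf2 libraries with PE (3 each), siNeg and siKlf2 libraries with and without PE (2 each, from an RNA interference knockdown of Klf2), and 1 CUT&Tag library. PE was labelled at 100 µM for 36 h, and the virus was given for 24 h after a first period of 12 h with or without PE. The comparison therefore covers cells 24 h after infection and labelled as free of PE, with viral infection common to both groups. The labels of the 0 h libraries also carry the PE dose, and the time label was used to place them. The virus promoter, the infecting dose, the species of the Klf2 sequence, the age of the animals and whether libraries came from separate cell preparations are not given in the labels. P-values therefore rest on library-to-library spread alone, and that spread may be technical.

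KLF2 is a zinc finger transcription factor of the Krüppel-like family, whose members bind GC-rich and CACCC-type DNA elements and can activate or repress genes. It is best known in endothelial cells, where laminar flow induces it and where it supports an anti-inflammatory and anti-thrombotic state. Ventricular myocyte cultures of newborn animals usually also contain some fibroblasts, endothelial cells and smooth muscle cells. In RNA from a whole culture, fewer cells of a type and less RNA per cell cannot be told apart. The count table lists genes by Ensembl ID, and of its 30560 IDs 0 were paired with a symbol in the gene table used here. For that reason the level of Klf2 itself, the cardiomyocyte identity of the cultures and markers of other cell types were not analysed here, and no sequence is shown. Genes are described below as groups defined by their measured levels and changes, with the 2 IDs that rose most and the 2 that fell most followed through every library.

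The 6 libraries held 32693762 to 60994028 counts each. Genes with 1 to 5 counts numbered 539 to 776 per AdGFP library but 1852 to 2022 per AdKlf2 library. With PE they numbered 1872 to 1994 per AdGFP library and 1728 to 1983 per AdKlf2 library. The AdGFP libraries without PE thus stood apart from the other virus groups in how many genes sat at the lowest counts. All 3 of them shared this, and neither the comparison nor its interaction with PE can be made without them. Among 15431 tested genes 919 had 0 counts in at least 1 AdGFP library, against 131 in AdKlf2. At a mean of at least 10 counts scaled per 1e+06 (CPM, the usual depth-scaled unit) over the 6 libraries, these numbers were 2 and 0. The median coefficient of variation of these 9473 genes was 7.88% in AdGFP and 5.87% in AdKlf2 (n = 3 libraries each), against 74.3% and 40.3% below 1 CPM. Within a group, log CPM values of genes of at least 10 CPM correlated across genes at 0.9875 to 0.9888 between AdGFP libraries and at 0.992 to 0.9957 between AdKlf2 libraries, whereas between the groups they correlated at 0.9144 to 0.9267. All statements below are on the genes of at least 10 CPM unless said otherwise. They took 98.3% to 98.4% of the scaled counts in each library. The mean over all 6 libraries chose them and treats both groups alike. A gene low in either group, however, enters only if it is higher in the other.

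Resting AdKlf2 and AdGFP libraries differed in both directions, and large differences were nearly all rises in AdKlf2. The low-count difference of the AdGFP libraries coincides with the virus, and its part in these calls was not tested. At an adjusted p under 0.05 in edgeR's quasi-likelihood test, 1929 genes were higher in AdKlf2 (20.4% of those of at least 10 CPM) and 1773 were lower (18.7%). Asking also for a fold of at least 1.5 left 827 rises (8.73%) and 500 falls (5.28%). At 2-fold or more 416 genes rose and 102 fell, and at 4-fold or more 115 rose (1.21%) and 2 fell (0.0211%). At folds of at least 8 and 16, 39 and 21 genes rose and 0 fell. With each library left out in turn, rises of at least 1.5-fold numbered 831 to 864 and falls 481 to 526. The 2 falls of at least 4-fold became 4 without AdKlf2 replicate 3, and the rises of that size numbered 112 to 120 under every alternative that was run. Of the 827 rises of at least 1.5-fold, 826 had every AdKlf2 library above every AdGFP library. Of the 500 falls, 497 had every AdKlf2 library below. Over all genes of at least 10 CPM the groups did not overlap for 52%. The calls rest on the same 6 libraries, so the separation of called genes follows largely from the choice and is no separate support. The median log2 fold change over the 9473 genes was -0.01, with quartiles of -0.20 and 0.20, so most genes moved little.

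**Figure D1:**
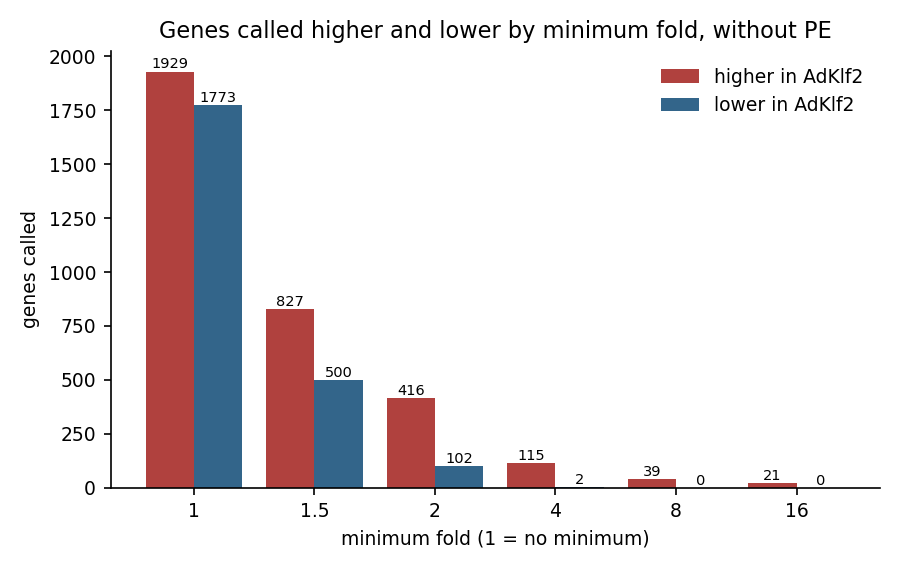
Number of genes called higher (red) or lower (blue) in AdKlf2 than in AdGFP without PE, among the 9473 genes whose mean reached 10 CPM, at each minimum fold on the x axis. The bars are of similar height with no minimum fold (1929 and 1773) and part as the fold grows, to 115 against 2 at 4-fold.

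**Figure D2:**
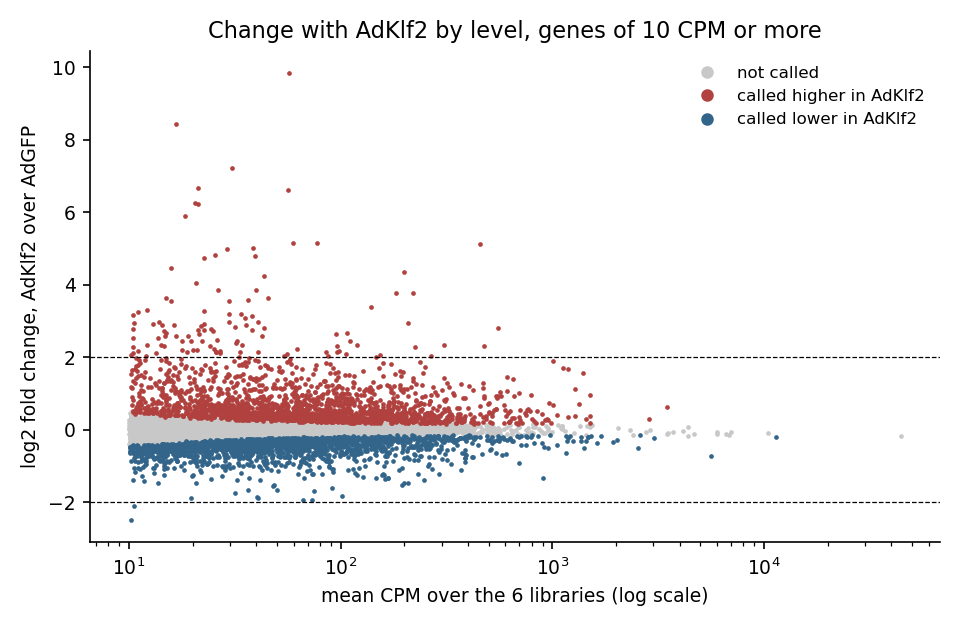
Log2 fold change of AdKlf2 over AdGFP (y axis) against the mean CPM over the 6 libraries (x axis, log scale) for genes of at least 10 CPM, with called rises in red, called falls in blue and dashed lines at 4-fold. Counting the single gene with 0 counts in all AdGFP libraries, which is not drawn, 115 called rises and 2 called falls pass the dashed lines.

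At a fold of at least 1.5, rises outnumbered falls in each of 4 level ranges above 10 CPM. Called at any fold, 467 genes rose and 522 fell between 10 and 30 CPM, where falls were thus the more numerous. Rises outnumbered falls in the 3 higher ranges. With library totals alone as the scaling, 1768 genes of at least 10 CPM were called higher and 2042 lower. The balance by range was not counted under that scaling. Between 10 and 30 CPM, 297 of 3326 genes were raised and 213 lowered 1.5-fold or more. Between 30 and 100 CPM, 327 of 4003 rose and 188 fell, and between 100 and 300 CPM 152 of 1641 rose and 78 fell. Among the 503 genes of 300 CPM or more, 51 rose and 21 fell. The share of genes called at any fold grew with the level, from 29.7% between 10 and 30 CPM to 55.3% at 300 CPM or more, while the median coefficient of variation in AdGFP fell from 11.9% to 4.61%. Over all 15431 tested genes 4599 were called (29.8%). Below 1 CPM, where the AdGFP libraries held few low counts, 142 genes rose and 17 fell. These low genes are given for completeness, and the part of the AdGFP libraries in their split was not tested.

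The levels at which rises and falls started and ended are given as a description. Genes were chosen by direction and by a mean over both groups, which sets part of the difference in where they started. The 827 genes that rose by at least 1.5-fold had a median level of 26.7 CPM in AdGFP and 59.6 CPM in AdKlf2, and 619 of them already lay at 10 CPM or more in every AdGFP library. The 115 with a fold of at least 4 started lower, at a median of 5.89 CPM in AdGFP, and reached a median of 49.5 CPM in AdKlf2. Of these 115 genes, 27 lay at 10 CPM or more in every AdGFP library, 8 lay under 1 CPM in each of them, and 28 reached 100 CPM or more in every AdKlf2 library. Their highest mean level in AdKlf2 was 965.9 CPM. In siNeg cells without PE, which received neither AdGFP nor AdKlf2 and belong to a table normalised separately, the same 115 genes had a median of 6 CPM, and the same number, 8, lay under 1 CPM in both libraries. The 500 genes that fell went from a median of 46.2 CPM in AdGFP to 25.6 CPM in AdKlf2. None of the 500 had 0 counts in any AdKlf2 library or lay under 1 CPM in all 3, and 410 stayed at 10 CPM or more in every AdKlf2 library. Levels in CPM are not divided by gene length, so they compare a gene with itself across libraries rather than one gene with another.

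The amount of RNA involved was similar in replicates. The 827 risen genes summed to 5.29%, 5.33% and 5.23% of the scaled counts in AdGFP replicates 1, 2 and 3, and to 10.9%, 11% and 11.4% in AdKlf2 replicates 1, 2 and 3. The 500 fallen genes summed to 5.55%, 5.54% and 5.42% in the AdGFP libraries and to 3.09%, 2.97% and 3% in the AdKlf2 libraries. The 115 largest rises went from 0.18%, 0.177% and 0.171% to 1.16%, 1.21% and 1.26%. These genes were chosen by the same comparison, so their sums describe its size and are no separate support. The 10 most abundant genes of a library took 11.65% to 11.77% of counts in AdGFP and 8.991% to 11.03% in AdKlf2, with AdKlf2 replicate 3 the lowest.

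The largest rise was that of ENSRNOG00000009105. It had 0 counts in all 3 AdGFP libraries, and 4989, 5009 and 4645 counts in AdKlf2 replicates 1, 2 and 3, or 107.88, 117.64 and 141.99 CPM. Against a floor of 3 counts over the AdGFP group (0.0175 CPM), the mean of 122.5 ± 17.6 CPM in AdKlf2 (SD, n = 3) was 7010-fold higher (edgeR adjusted p = 1.24e-11). The floor covers counting error only, and a fragment may have added a count for each of its mates. The fold is therefore not a strict lower bound. With PE the gene again had 0 counts in every AdGFP library, and it stood at 505.8, 430.43 and 515.03 CPM in the AdKlf2 libraries. It was near 0 in the knockdown table as well, with 13 and 17 counts in siNeg and 2 and 1 counts in siKlf2 without PE, in libraries of 181101876 to 206306054 counts. The fitted log2 change in siKlf2 was -3.14 (SE 0.86), a fall that passed (edgeR adjusted p = 0.0106). Its reads were thus at or near 0 in every library that did not receive AdKlf2.

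ENSRNOG00000025370 showed the next largest rise. Its levels were 0.0369, 0.163 and 0.161 CPM in AdGFP replicates 1, 2 and 3, from 2, 10 and 9 counts, and 106.26, 120.92 and 114.51 CPM in AdKlf2. On the log2 scale AdKlf2 was higher by 9.83 (SE 0.186), at an edgeR adjusted p = 1.59e-12, and the 2 groups lay far apart in every library. With PE it stood at 0.565, 0.0614 and 0.495 CPM in AdGFP and at 65.8, 62.1 and 73 CPM in AdKlf2. In the knockdown table it reached 0.323 and 0.182 CPM in siNeg and 0.189 and 0.1 CPM in siKlf2 without PE, a difference that did not pass (edgeR adjusted p = 0.115).

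The largest falls were moderate in size and left both genes detectable. ENSRNOG00000010301 lay at 15.2, 16.6 and 20.2 CPM in AdGFP replicates 1, 2 and 3 and at 3.50, 3.03 and 2.63 CPM in AdKlf2, with no overlap. The change on the log2 scale was -2.50 (SE 0.18), at an edgeR adjusted p = 1.53e-07. With PE the log2 change was -2.55 (SE 0.175, with an edgeR adjusted p = 2.12e-10), and the difference between the responses with and without PE was -0.06 (SE 0.239, edgeR adjusted p = 0.875). After knockdown it lay at 13.9 ± 0.532 CPM against 14.9 ± 0.813 CPM in siNeg (SD, n = 2), which did not pass (edgeR adjusted p = 0.151).

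ENSRNOG00000018267 fell from 18.1, 14.6 and 18.7 CPM in AdGFP to 3.59, 3.45 and 4.83 CPM in AdKlf2, again with no overlap. This was a log2 change of -2.12 (SE 0.18), at an edgeR adjusted p = 8.11e-07. With PE it was at 11.3, 10.2 and 11.2 CPM in AdGFP and at 0.784, 0.313 and 0.828 CPM in AdKlf2. In siKlf2 it lay at 16.4 ± 1.73 CPM against 14.2 ± 0.173 CPM in siNeg without PE (SD, n = 2), and this difference did not pass (edgeR adjusted p = 0.0648).

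**Figure D3:**
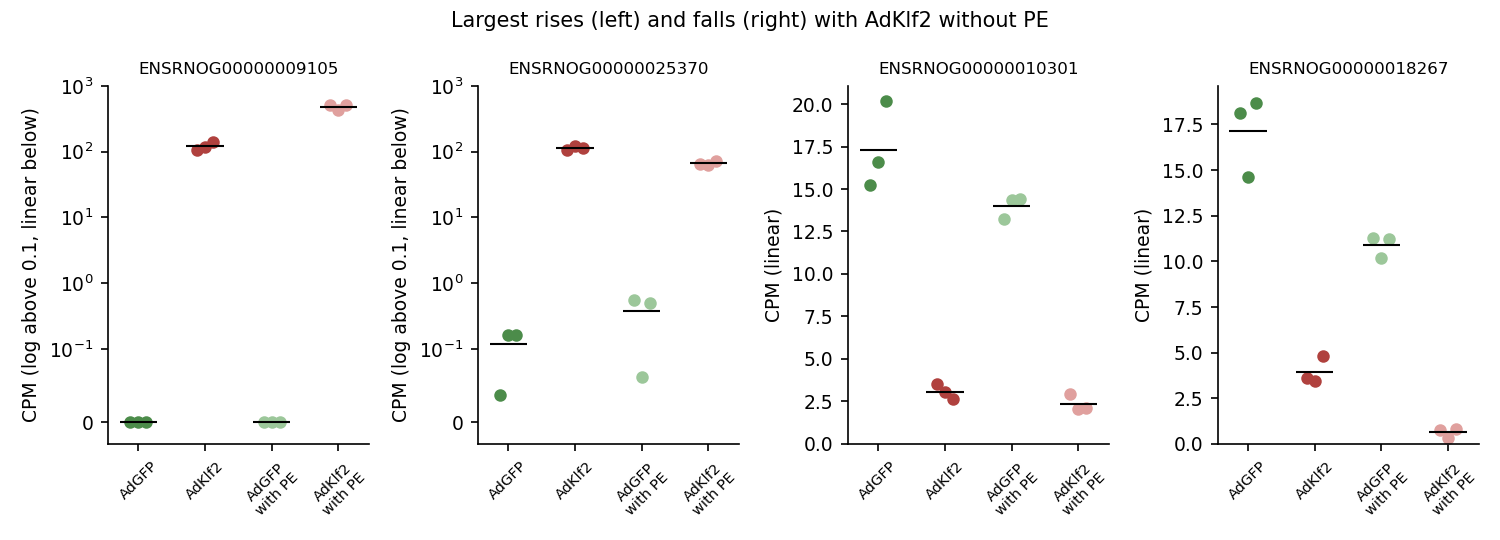
CPM of the 2 IDs with the largest rises and the 2 with the largest falls in each AdGFP and AdKlf2 library, without and with PE (points are libraries, n = 3 a group, and lines are means); the axes of the rises are logarithmic above 0.1 CPM and linear below, and those of the falls are linear. AdKlf2 libraries without PE stand at 107.88 to 141.99 CPM for the first ID, which has 0 counts in all AdGFP libraries.

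Of the genes of at least 10 CPM, 6 stayed under 1 CPM in all 8 libraries of the knockdown table, where no library received AdGFP or AdKlf2. Their median was 0.166, 0.26 and 0.313 CPM in AdGFP replicates 1, 2 and 3 and 37.9, 42.8 and 44.5 CPM in AdKlf2. These 6 reached a mean of 10 CPM only through the AdKlf2 libraries, so the choice set their direction and the values are a description.

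The response of resting cells was then compared with that of cells given PE, which were separate libraries in both arms. Of the 827 genes that rose by at least 1.5-fold without PE, 665 also rose by that fold with PE (80.4%) and 39 fell (4.72%), where 24% and 23.4% of all genes of at least 10 CPM rose or fell with PE. The 665 made up 29.2% of the 2277 genes that rose with PE. Of the 500 that fell without PE, 372 also fell with PE (74.4%) and 26 rose (5.2%), and the 372 made up 16.8% of the 2219 genes that fell with PE. Of the 416 rises of at least 2-fold 364 rose by at least 1.5-fold with PE, and of the 115 rises of at least 4-fold 112 did, while 0 of the 115 were called lower. Over all 9473 genes a Spearman correlation of 0.552 was found between the fold changes without and with PE, as a description across genes that share their libraries.

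Changes were smaller in resting cells than with PE. The quartiles of the log2 fold change over all genes of at least 10 CPM were -0.20 and 0.20 without PE and -0.55 and 0.55 with PE. The 115 largest rises had a median log2 fold change of 2.75 without PE and 4.12 with PE. On a scaling common to all 12 libraries of the overexpression table, they summed to 1667, 1653.4 and 1590.9 CPM in AdGFP and to 11181, 11628 and 11921 CPM in AdKlf2 without PE. With PE the sums were 2221.7, 2124.8 and 2159.6 CPM in AdGFP and 34929, 32956 and 34833 CPM in AdKlf2. Every AdKlf2 library with PE thus lay above every AdKlf2 library without it, and both AdGFP groups lay below. Tested gene by gene as the interaction of Klf2 and PE in edgeR, 6151 of the 9473 genes had a different response with and without PE (64.9%), 2891 with a higher (30.5%) and 3260 with a lower value with PE (34.4%). Among the 827 risen genes the interaction was higher for 493 and lower for 196, and among the 500 fallen genes it was higher for 104 and lower for 269. These genes were chosen by the comparison without PE, which is itself part of the interaction.

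**Figure D4:**
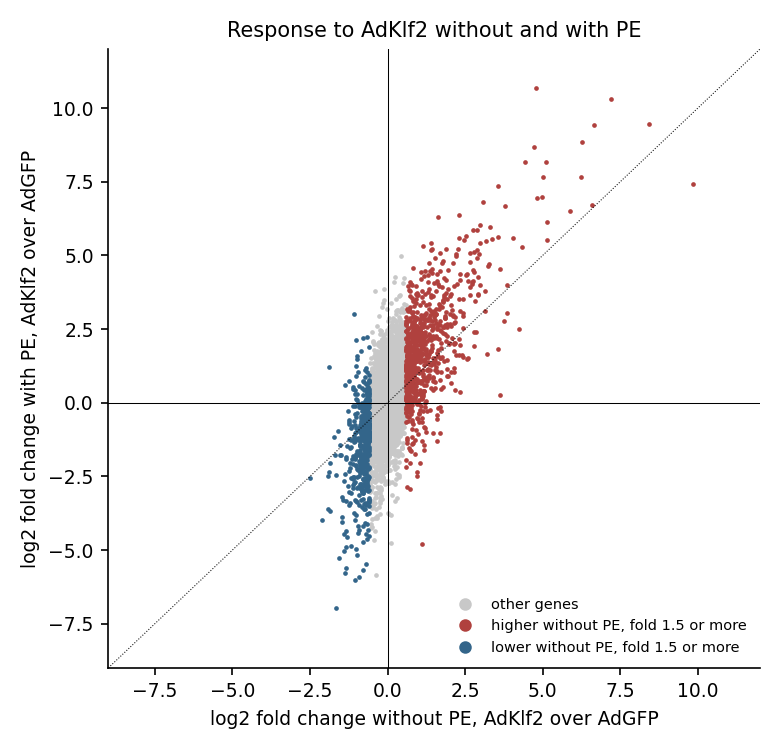
Log2 fold change of AdKlf2 over AdGFP without PE (x axis) and with PE (y axis) for genes of at least 10 CPM with counts in AdGFP; red and blue mark genes that rose or fell by at least 1.5-fold without PE and the dotted line marks equal change. Most red points lie above 0 (665 of the 827 rose by at least 1.5-fold with PE) and most blue points below 0 (372 of the 500 fell by that fold).

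Fold changes after Klf2 knockdown, from a table with no library in common, were nearly uncorrelated with those after AdKlf2. The Spearman correlation of siKlf2 and AdKlf2 fold changes without PE was 0.00504 across the 9473 genes and the Pearson correlation was -0.083, both given as a description. Of 601 genes that fell by at least 1.5-fold in siKlf2 (6.34% of the 9473), 119 rose by that fold in AdKlf2 and 63 fell. Of 570 that rose by that fold in siKlf2 (6.02%), 80 rose by it in AdKlf2 and 54 fell. Both knockdown lists therefore held more AdKlf2 rises (19.8% and 14%) and more falls (10.5% and 9.47%) than the 8.73% and 5.28% of all genes, and their median log2 fold changes in AdKlf2 were 0.0107 and -0.00273. Seen from the other side, 31 of the 115 largest rises fell by at least 1.5-fold in siKlf2 (27%) and 8 rose (6.96%). Called at any fold, 56 of the 115 fell (48.7%) and 29 rose (25.2%), where 29.2% of all genes of at least 10 CPM fell and 42.5% rose. The 115 had a median log2 fold change of -0.24 in siKlf2, against 0.05 over all genes. Among the 102 genes that fell by at least 2-fold in AdKlf2, 13 rose and 14 fell by at least 1.5-fold in siKlf2, and at any fold 45 rose (44.1%) and 31 fell (30.4%). The knockdown table held 4 groups of 2 libraries at 181101876 to 224082309 counts.

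Genes that PE moved in siNeg cells, which share no library with the comparison, were also followed. PE raised 497 genes of at least 10 CPM by at least 1.5-fold there (5.25% of the 9473). Of these, 118 rose by that fold in AdKlf2 without PE (23.7%) and 21 fell (4.23%), a median log2 fold change of 0.17. Of 552 that PE lowered (5.83%), 85 rose (15.4%) and 142 fell (25.7%), with a median of -0.27. Over all 9473 genes 827 rose (8.73%) and 500 fell (5.28%), with a median of -0.01. The list lowered by PE thus held larger shares of both rises and falls than all genes. In resting cells the 2 lists had medians of the same sign as their PE response in siNeg, and members moved both ways in each.

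**Figure D5:**
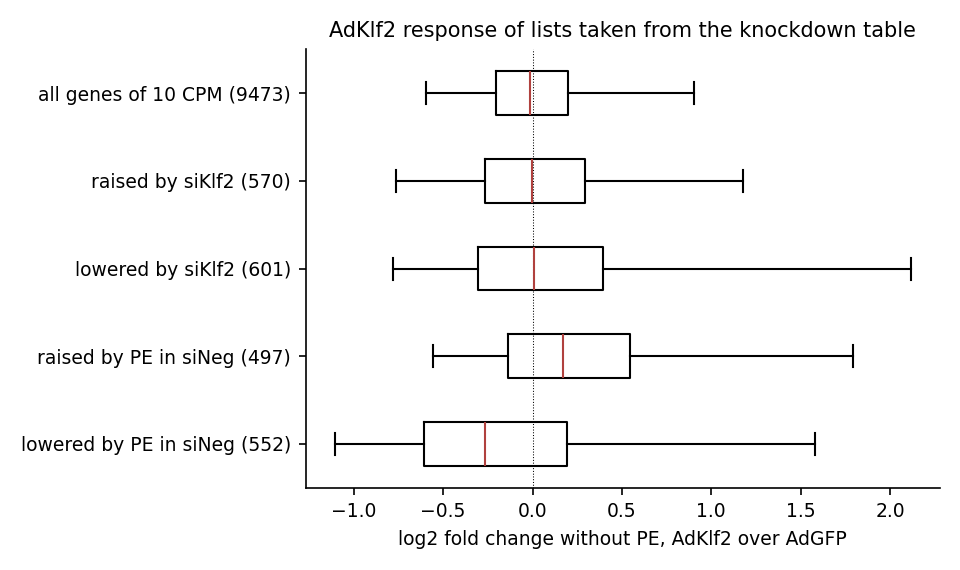
Log2 fold change of AdKlf2 over AdGFP without PE (x axis) for all genes of at least 10 CPM and for 4 lists taken from the knockdown table, with the number of genes in brackets (box, quartiles; line, median; whiskers, percentiles 5 and 95). The list raised by PE in siNeg has a median of 0.17 and the list lowered by PE one of -0.27, while both siKlf2 lists have medians near 0.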

How the data were processed

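Each RNA library took 400 ng of total RNA, per the labels' protocols. The submitters' processing notes name Trim Galore, STAR, featureCounts and the build mRatBN7.2, and the authors deposited raw counts per Ensembl gene ID, 1 table of 12 libraries for overexpression and 1 of 8 for knockdown. Versions and the use of strand are not given in the sources used here. Of the values from 1 to 20, 80.46% to 82.2% were even in the AdGFP libraries without PE and 73.17% to 75.91% in the AdKlf2 libraries. With PE the shares were 75.84% to 77.85% in AdGFP and 72.07% to 77.94% in AdKlf2. Even values are common when both mates of a fragment are counted, and counts may not be independent. The cause of the difference between the groups was not tested.

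The 6 libraries without PE entered 1 quasi-likelihood fit in edgeR 4.0.16 (R 4.3.3), with filterByExpr (minimum count 10, minimum total 15) and TMM factors. The fit had 15431 genes and a biological coefficient of variation of 0.184. Two-sided p-values received a Benjamini-Hochberg adjustment over all tested genes. The AdKlf2 response with PE and the interaction came from the 12-library fit (16153 genes), and knockdown values from the 8-library fit (18173 genes). Standard errors are the log2 fold change divided by the square root of its F statistic. The fit was tested on simulated data, which were drawn without the low-count difference of the AdGFP libraries.

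IDs had no symbols in the gene table used here, so the gene lists and markers that had been drawn up were not run, and the rule for named genes was the 2 largest rises and falls among called genes of at least 10 CPM with groups that did not overlap. The CUT&Tag peak list, on mRatBN7.2, could not be placed on these genes and was not used here. Replicate pairs differed by 9.28 to 32.3 times the sampling variance that independent counts would have, so all 6 libraries were kept. Where both mates of a fragment were counted, these multiples are too high. Alternatives were RLE factors, library totals alone, DESeq2 1.42.0, limma 3.58.1 voom with quality weights, no filter, a 10 CPM filter, all 4 groups in the fit, a replicate block, halved counts and leaving out each library. The members, lists and sets were chosen with earlier results of these data known. Sets by fold, the silent genes and the lists from the knockdown table were chosen after the files were read.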

Additional observations from a re-analysis of the deposited data

Results flagged for a closer look

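For 2 of the IDs followed, the response to AdKlf2 differed between cells with and without PE by the interaction test of edgeR. ENSRNOG00000025370 had a smaller log2 fold change with PE than without PE (difference -2.40, SE 0.541, edgeR adjusted p = 0.00109), with AdGFP levels that rest on 2 to 20 counts a library. ENSRNOG00000018267 fell further with PE, by a difference of -1.88 (SE 0.31, edgeR adjusted p = 5.04e-05), from 10 to 54 counts in the AdKlf2 libraries with PE. For ENSRNOG00000009105, at 0 counts in AdGFP with and without PE, the difference was not tested.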

How the results depend on the processing

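The counts of genes called without PE stayed within 1.5 times the reported ones under all alternatives run, apart from the falls of at least 4-fold. Those numbered 2, and 2 to 4 when each library was left out, with 4 without AdKlf2 replicate 3. Rises and falls of at least 1.5-fold at 10 CPM or more numbered 767 to 839 and 477 to 579 under the other settings, and 0 genes of either set were called at that fold in the opposite direction. With library totals alone 46.4% of called genes were higher, rather than 52.1%. The all-gene count was 4599, and 5672 with all 4 groups in the fit. The interaction was called for 5783 to 6397 genes. The 4 IDs kept their direction and call. Libraries sharing a replicate number were not treated as pairs in the fit. Their deviations from the group means correlated at -0.0003444, 0.08856 and 0.1788, and not every library correlated best with its own number. Deviations within a group are tied to each other, so these values cannot show whether preparations were shared. With a replicate block 824 of the 827 rises and 488 of the 500 falls of at least 1.5-fold remained called. Statements on genes below 10 CPM are limited by the few low counts of the AdGFP libraries, which were the deeper ones, and the cause was not tested.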
